A study of Mus musculus with 30 samples.

Results

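The genes described here are Ifit1, Ifit2, Ifit3, Ifit3b, Rsad2, Cmpk2, Mx1 and Mx2, 8 antiviral genes of the mouse that are usually driven by type I interferon. They were taken by symbol from the 54146 gene rows of an RNA-seq count table of J774A.1 cells, a macrophage-like mouse cell line, and were selected on measured values, namely their response to interferon gamma (IFNG), the type II interferon, in these libraries, and for Ifit2 and Cmpk2 a larger response in the knockout clones. The IFNG response of the 8 genes and its difference between genotypes are therefore given below as descriptions, with no test. The wild-type (WT) clones WT1, WT2 and WT3 were expanded from single J774A.1 cells that had not been electroporated. The knockout (KO) clones KO1 and KO2 were electroporated with Cas9 and a pair of guides and carry a homozygous deletion of B2_Mm2.Dicer1, a transposon copy that lies within Dicer1 on chromosome 12, in its first intron. Cells of each clone were either left untreated (UT) or given 100 ng/mL mouse IFNG for 4 h, with 3 libraries of polyadenylated RNA for each clone and treatment, 30 in all. Each line is 1 clone, so that genotype, electroporation and what is particular to a clone cannot be told apart beyond the spread between clones.

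Type I interferons bind a receptor made of Ifnar1 and Ifnar2 and act through the kinases Jak1 and Tyk2 on transcription factors, Stat2 and Irf9 among them, that bind the interferon-stimulated response element (ISRE). IFNG binds a separate receptor and acts mainly through the gamma-activated site (GAS). The Ifit proteins bind viral RNA, and Ifit1 recognises RNA caps that lack the methyl mark of host messages. Rsad2, also called viperin, is an enzyme that turns the nucleotide CTP into a chain terminator of viral polymerases, and Cmpk2 is a mitochondrial nucleotide kinase whose gene lies beside Rsad2. Mx1 and Mx2 are dynamin-like GTPases that block virus replication, in the nucleus and in the cytoplasm of mouse cells respectively, and many inbred laboratory strains carry a defective Mx1 gene.

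In mm10, the Ifit genes of this group form a cluster on the plus strand of chromosome 19, with Ifit2 from 34550694 to 34576419, Ifit3 from 34583531 to 34588731, Ifit3b from 34607970 to 34613401 and Ifit1 from 34640871 to 34650009. Rsad2 and Cmpk2 stand back to back on chromosome 12, Rsad2 on the minus strand from 26442746 to 26456452 and Cmpk2 on the plus strand from 26469204 to 26479837. Mx1 lies on chromosome 16 on the minus strand from 97447035 to 97462907 and Mx2 on the plus strand from 97535308 to 97560900. None of the 8 genes overlapped another annotated gene. Ifit3 and Ifit3b are close paralogs. Of the 100-base windows in the Ifit3 transcript, 31.7% were also present in Ifit3b, and 27.4% of the Ifit3b windows were present in Ifit3. Because only uniquely aligned fragments were kept, fragments that lie wholly in shared sequence are missing from the counts of Ifit3 and Ifit3b, and the levels of these genes are uncertain. Mx1 and Mx2 shared 0.929% of the Mx1 windows.

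Promoter windows from RefSeq (GRCm38.p6, 250 bases before to 50 bases after the start) were at hand for 6 of the 8 genes. They were searched on both strands for the ISRE core, which is GAAA, any 2 bases and GAAA, or TTTC, any 2 bases and TTTC on the opposite strand, and for the GAS core TTCNNNGAA, which reads the same on both strands. The ISRE core was present in 3.44% of all 32851 promoter windows and 2 or more copies in 0.225%, and the GAS core was present in 8.3%. Ifit1, Ifit3 and Ifit3b each held 2 ISRE cores and Rsad2 held 1, all in the TTTC orientation. The stretches that hold them follow with 15 bases on either side, 5′ to 3′ along the gene, with the matches in capitals, to let the shared letters be seen.
Ifit1: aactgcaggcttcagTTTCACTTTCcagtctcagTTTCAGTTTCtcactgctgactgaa
Ifit3: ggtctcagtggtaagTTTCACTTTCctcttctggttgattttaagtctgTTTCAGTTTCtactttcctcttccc
Ifit3b: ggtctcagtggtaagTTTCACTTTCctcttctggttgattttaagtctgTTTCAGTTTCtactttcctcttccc
Rsad2: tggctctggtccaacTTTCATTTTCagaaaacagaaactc

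The Ifit1 stretch is chr19:34640770-34640828 on the plus strand, the Ifit3 stretch is chr19:34583358-34583431 on the plus strand, the Ifit3b stretch is chr19:34607754-34607827 on the plus strand, and the Rsad2 stretch is chr12:26456548-26456587 on the minus strand. The 74 bases shown for Ifit3 and Ifit3b were identical, although the matches began 156 and 122 bases before the RefSeq start of Ifit3 and 188 and 154 bases before that of Ifit3b. In Ifit1 the matches began 104 and 85 bases before the start, and in Rsad2 120 bases before it. No ISRE core with these letters was in the windows of Ifit2 and Cmpk2. A GAS core began 241 bases before the first of 2 starts of Ifit2, and the windows of the other 5 genes held none. These are matches of letters and not measured binding.

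Counted fragments ranged from 15566122 to 37992642 per library. Values are CPM, a fragment count divided by the library's size after TMM scaling, and levels compared between genes are per kilobase of exon (RPKM). All 8 macrophage markers on a fixed list (Adgre1, Csf1r, Cd68, Lyz2, Itgam, Spi1, Fcgr1 and Mertk) had a mean of at least 1 CPM in each genotype and treatment, and 12 markers of other cell types summed to between 1.36 and 3.51 CPM in every library. The summed macrophage markers ranged from 3745 to 5152 CPM in untreated WT and from 5574 to 6189 CPM in untreated KO libraries, and their part in the differences below was not tested. The 8 markers did not differ alike. In untreated KO, 4 were called higher and 1 lower, beside 12.2% and 14.4% of all genes. Adgre1 had a mean of 51.1 CPM in untreated WT and 265 CPM in untreated KO, and Mertk 48.7 and 22.6 CPM. Dicer1, whose intron was edited, was at 70.1 to 72.4 CPM in untreated KO1, 102 to 109 CPM in untreated KO2 and 97.1 to 130 CPM in untreated WT libraries (KO against WT, log2FC -0.43 ± 0.11 SE, edgeR adjusted p = 0.0069). Untreated KO2 thus lay within the WT range, and this p takes libraries and not clones as replicates. The counts are on exons and do not show the deletion. Chromosome 12 genes were lower as a whole in KO1 (median shift -0.36 on the log2 scale over 428 genes, untreated), and were at -0.00078 in KO2, and this is given with Rsad2 and Cmpk2 below. Dicer1 lies on the same chromosome and was lower in untreated KO1 than in untreated KO2 (log2FC -0.56 ± 0.043 SE, edgeR adjusted p = 1.9e-07). Its difference between KO and WT is not given with library sizes from chromosome 12 genes.

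All 8 genes were higher after IFNG in the mean of every clone, and Ifit2 had the highest level in either state. In untreated WT libraries, Ifit2 stood at 5.44 ± 0.74 RPKM (SD, n = 9), Cmpk2 at 1.35 ± 0.35, Rsad2 at 0.438 ± 0.099, Ifit1 at 0.333 ± 0.145, Ifit3 at 0.241 ± 0.157, Mx2 at 0.164 ± 0.079, Mx1 at 0.0829 ± 0.0663 and Ifit3b at 0.0254 ± 0.0236. Ifit2, Cmpk2 and Rsad2 did not overlap one another, whereas from Rsad2 downwards each gene overlapped the one above it. After IFNG, WT libraries held 22.5 ± 3.2 RPKM of Ifit2, 10.1 ± 1.0 of Cmpk2, 5.57 ± 1.93 of Ifit1, 3.81 ± 0.49 of Rsad2, 2.82 ± 1.104 of Ifit3, 1.26 ± 0.11 of Mx2, 0.505 ± 0.415 of Mx1 and 0.358 ± 0.245 of Ifit3b. In this order Ifit1 passed Rsad2, but those 2 genes overlapped, as did Rsad2 with Ifit3, Mx2 with Mx1 and Mx1 with Ifit3b. The order in IFNG-treated KO libraries was the same, from 20.4 ± 3.5 RPKM (SD, n = 6) of Ifit2 to 0.245 ± 0.086 of Ifit3b, and only Mx1 and Ifit3b overlapped.

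**Figure D1:**
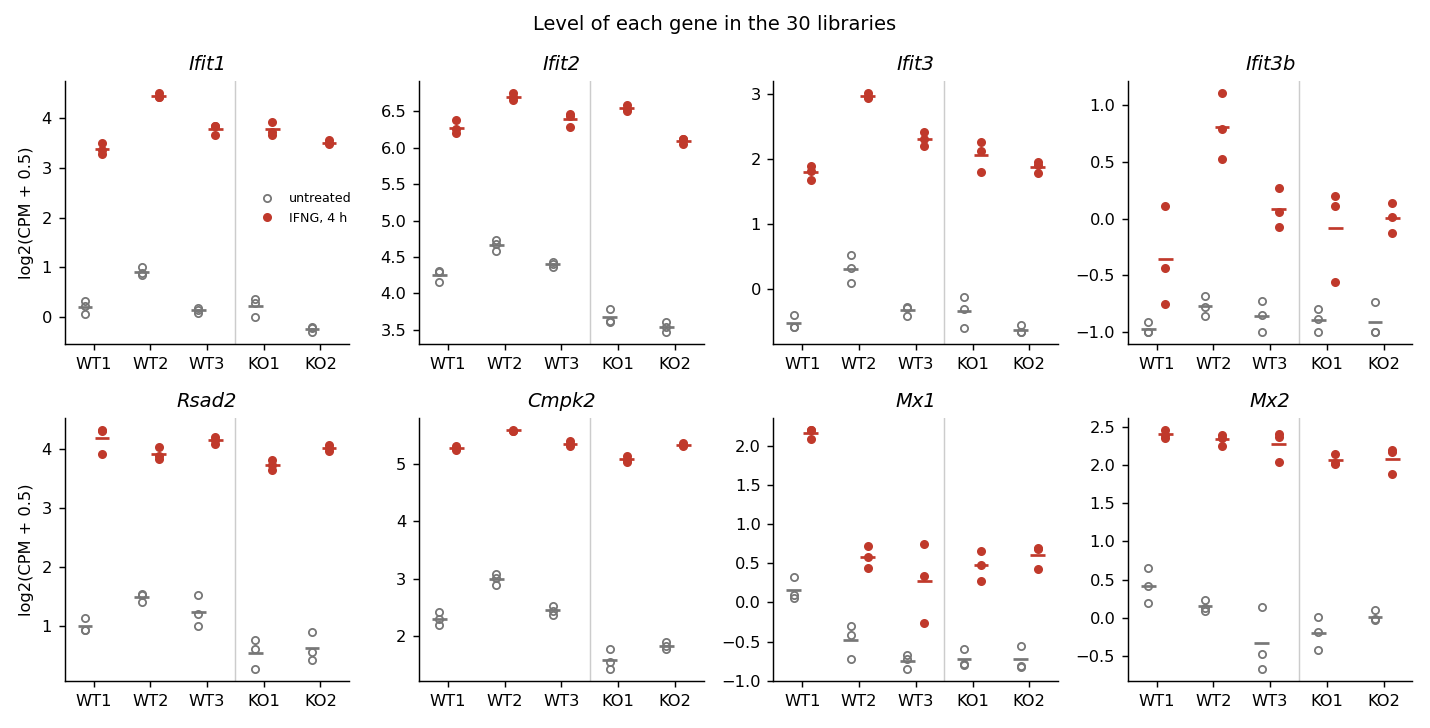
Level of each of the 8 genes in the 30 libraries as log2(CPM + 0.5), by clone, with each gene on its own vertical scale. Open grey circles are untreated libraries, filled red circles are IFNG-treated libraries, and short lines are the means of 3 libraries. Untreated Ifit2, Rsad2 and Cmpk2 lie lower in all 6 KO libraries than in all 9 WT libraries, while the treated libraries of both genotypes overlap.

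Ifit2 was the most abundant of the group, and its untreated level separated the genotypes. The untreated WT1 libraries were at 17.4, 19.1 and 19.3 CPM, the WT2 libraries at 25.1, 26.01 and 23.5 CPM and the WT3 libraries at 20.6, 20.1 and 21.04 CPM. The KO1 libraries were at 11.7, 13.3 and 11.8 CPM and the KO2 libraries at 10.6, 11.1 and 11.6 CPM. Every untreated KO library was thus below every untreated WT library, with a log2FC of -0.87 ± 0.087 (SE). In RNA from whole cultures, fewer expressing cells and less RNA per cell cannot be told apart. After IFNG, the WT1 libraries rose to 76.1, 72.8 and 82.5 CPM, the WT2 libraries to 103, 107 and 101 CPM and the WT3 libraries to 77.7, 86.1 and 88.0 CPM. The treated KO1 libraries were at 92.3, 95.5 and 89.9 CPM and the KO2 libraries at 65.7, 69.1 and 69.1 CPM. The treated genotypes overlapped, since KO1 lay between WT3 and WT2 and KO2 lay below all WT libraries (KO against WT, log2FC -0.13 ± 0.11). The sign of that treated difference depended on 1 clone, as it was 0.077 without KO2, -0.38 without KO1 and -0.0059 without WT2.

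Cmpk2 followed the same pattern at lower levels. Untreated libraries were at 4.07, 4.43 and 4.85 CPM in WT1, 6.88, 7.93 and 7.54 CPM in WT2 and 5.25, 4.67 and 4.93 CPM in WT3. They were at 2.18, 2.90 and 2.41 CPM in KO1 and 2.92, 3.04 and 3.20 CPM in KO2, all below the lowest WT library (log2FC -1.01 ± 0.16). After IFNG the values were 38.5, 37.4 and 39.2 CPM in WT1, 48.1, 47.4 and 47.4 CPM in WT2 and 39.6, 40.1 and 41.8 CPM in WT3. The treated KO1 libraries reached 32.2, 33.1 and 35.01 CPM and the KO2 libraries 41.1, 39.6 and 39.3 CPM. KO1 was below all treated WT libraries and KO2 lay within the WT range (KO against WT, log2FC -0.20 ± 0.075, and -0.33 to -0.081 with any 1 clone or library left out). With library sizes taken from chromosome 12 genes, the difference between the genotypes was -0.84 untreated and -0.031 after IFNG.

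Rsad2, the neighbour of Cmpk2, was also lower in untreated KO libraries, and here the difference was tested. The untreated WT libraries were at 1.41, 1.41 and 1.68 CPM in WT1, 2.14, 2.39 and 2.39 CPM in WT2 and 1.49, 1.80 and 2.38 CPM in WT3. The KO libraries were at 1.03, 0.704 and 1.19 CPM in KO1 and 0.834, 1.36 and 0.978 CPM in KO2. No KO library reached the lowest WT library, and the log2FC was -0.89 ± 0.18 (edgeR quasi-likelihood test with Benjamini-Hochberg adjustment over all genes, adjusted p = 0.0016). The adjusted p stayed between 0.00023 and 0.033 when any 1 clone was left out and was 0.0087 with library sizes from chromosome 12 genes. With counts summed per clone the log2FC was the same size (-0.89) and the call was lost (adjusted p = 0.33). An exact two-sided permutation test over the 5 clone means gave p = 0.2, the smallest value that this test as run could give. These untreated libraries also enter the response to IFNG on which the genes were selected. The test is therefore not independent of the selection or of a difference in response, and its p-values are a description. After IFNG, Rsad2 was at 13.7 to 19.5 CPM (median 16.5) in WT and 12.01 to 16.3 CPM (median 14.2) in KO libraries, which overlapped (log2FC -0.22 ± 0.091, and -0.37 to -0.080 with any 1 clone or library left out).

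Ifit2, Cmpk2 and Rsad2 were the 3 of the 8 genes whose untreated KO libraries all lay below all untreated WT libraries. Of all 13886 genes tested in that comparison, 5.21% showed this order and 3.88% the opposite order, and 14.4% were called lower in KO and 12.2% higher. After IFNG none of the 8 genes had KO and WT libraries that did not overlap, against 4.66% of genes with all KO libraries below and 3.31% with all KO libraries above. The group was chosen for its response, so that these counts describe it and test nothing.

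The remaining genes had few untreated fragments. The untreated tests of Ifit1 and Mx2 share the limit given for Rsad2, that these libraries enter the response used in the selection. Ifit1 was at 0.550 to 1.51 CPM (median 0.672, from 11 to 32 fragments a library) in untreated WT and 0.313 to 0.782 CPM (median 0.440) in untreated KO libraries. The groups overlapped, and the difference did not pass the test (log2FC -0.77 ± 0.30, adjusted p = 0.067). It depended on the clones. It was -0.32 without WT2 (adjusted p = 0.36) and -0.36 without KO2 (adjusted p = 0.49), and it ranged to -1.29 and passed when WT1, WT3 or KO1 was left out (adjusted p from 0.023 to 0.046) or either of 2 single libraries (adjusted p = 0.048). Mx2 was at 0.129 to 1.07 CPM in untreated WT and 0.247 to 0.574 CPM in untreated KO libraries (log2FC -0.42 ± 0.33, 95% interval -1.11 to 0.27, adjusted p = 0.36), and this value too moved with the clones, from -0.048 without WT1 (adjusted p = 0.92) and -0.23 without KO1 (adjusted p = 0.80) to -0.71 without WT3 (adjusted p = 0.039). Ifit3, Ifit3b and Mx1 were below the count filter in this comparison. Their untreated KO libraries held 4 to 11, 0 to 3 and 2 to 5 fragments respectively, and their WT libraries 5 to 18, 0 to 3 and 1 to 22.

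After IFNG, Ifit1 was at 9.13 to 22.1 CPM (median 13.8) in WT and 10.6 to 14.6 CPM (median 11.7) in KO libraries, so that all KO libraries fell within the WT range (log2FC -0.30 ± 0.20, and 0.053 without WT2). Ifit3 gave 2.71 to 7.57 CPM (median 4.44) in WT and 2.94 to 4.30 CPM (median 3.30) in KO libraries, again within the WT range (log2FC -0.50 ± 0.23, and -0.11 without WT2). For Ifit3b, the fewest fragments of any treated library were 2 and the most 26, and the log2FC of -0.49 ± 0.43, which turned to 0.19 without WT2, rests on these counts. Mx2 was at 3.61 to 5.00 CPM (median 4.67) in WT and 3.19 to 4.06 CPM (median 3.73) in KO libraries, and 3 KO libraries lay below the lowest WT library (log2FC -0.29 ± 0.085). Mx1 had a log2FC of -0.999 ± 0.472, which came from WT1 with 3.74, 4.09 and 4.11 CPM. All other treated libraries of Mx1, WT2, WT3 and KO alike, were at 0.332 to 1.18 CPM, and without WT1 the log2FC was 0.18.

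**Figure D2:**
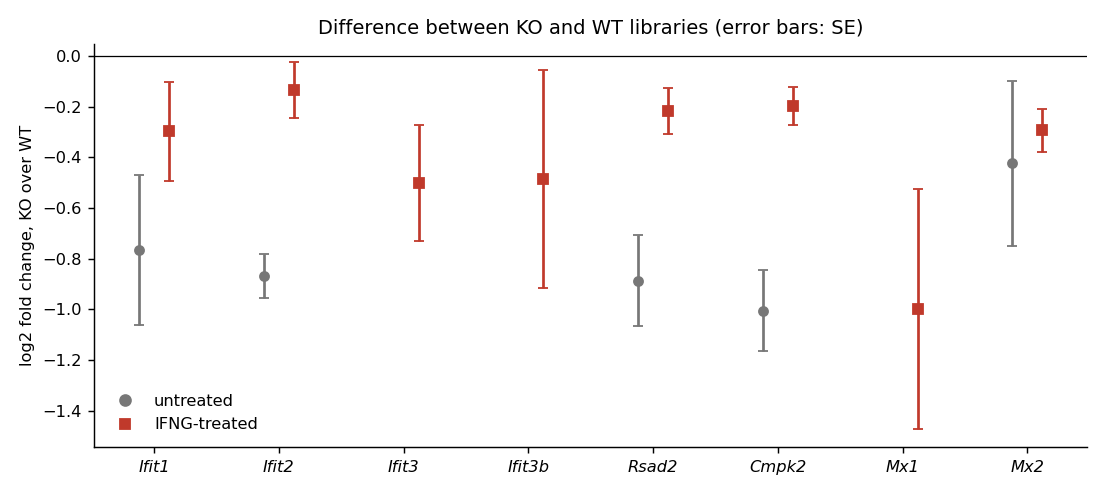
Log2 fold change of KO over WT libraries for each gene, in untreated libraries (grey circles) and IFNG-treated libraries (red squares), with bars of 1 standard error. Untreated values of Ifit2, Rsad2 and Cmpk2 are -0.87, -0.89 and -1.01 and their treated values -0.13, -0.22 and -0.20. Untreated Ifit3, Ifit3b and Mx1 are left out because they were below the count filter.

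The response itself, IFNG-treated over untreated libraries of the same clone, was positive in all 36 of the gene and clone pairs that could be fitted. Ifit2 rose with a log2FC of 2.06 ± 0.074 in WT1, 2.06 ± 0.050 in WT2 and 2.03 ± 0.058 in WT3, a close agreement among WT clones whose untreated levels differed. In KO1 it was 2.93 ± 0.064 and in KO2 2.61 ± 0.067. The Cmpk2 values were 3.11 ± 0.091, 2.68 ± 0.069 and 3.03 ± 0.075 in WT1, WT2 and WT3, and 3.76 ± 0.096 and 3.71 ± 0.079 in KO1 and KO2. For Rsad2 they were 3.56 ± 0.15, 2.66 ± 0.12 and 3.23 ± 0.13 in the WT clones and 3.72 ± 0.15 and 3.90 ± 0.13 in the KO clones. In these 3 genes both KO clones stood above all WT clones, for Rsad2 by little (KO1 against WT1).

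In Ifit1, Ifit3 and Mx2 the clones stood in another order. The Ifit1 response was 3.91 ± 0.16, 3.96 ± 0.12 and 4.43 ± 0.16 in WT1, WT2 and WT3, 4.29 ± 0.16 in KO1 and 4.93 ± 0.15 in KO2, so that KO1 lay below WT3. Ifit3 responses ran from 3.29 ± 0.18 in WT2 to 4.36 ± 0.25 in KO2, with KO1 (3.62 ± 0.28) below WT1 and WT3. The Mx2 response was lowest in WT1 (2.503 ± 0.187) and highest in WT3 (3.63 ± 0.30), and both KO clones lay between them. Mx1 could be fitted in 4 clones, at 2.68 ± 0.19 in WT1, 2.15 ± 0.40 in WT2, 3.07 ± 0.41 in KO1 and 3.26 ± 0.38 in KO2, with both KO clones above both WT clones by less than the sum of their SE for KO1 and WT1. Ifit3b could be fitted in WT2 (3.803 ± 0.470) and KO2 (3.68 ± 0.65) only. In pooled libraries, the 7 genes that passed the filter had a median log2FC of 2.92 in WT and 3.72 in KO, where the medians of all genes were -0.0028 and -0.0037, and 14.8% of 13423 genes in WT and 15.8% of 13851 genes in KO were called higher.

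**Figure D3:**
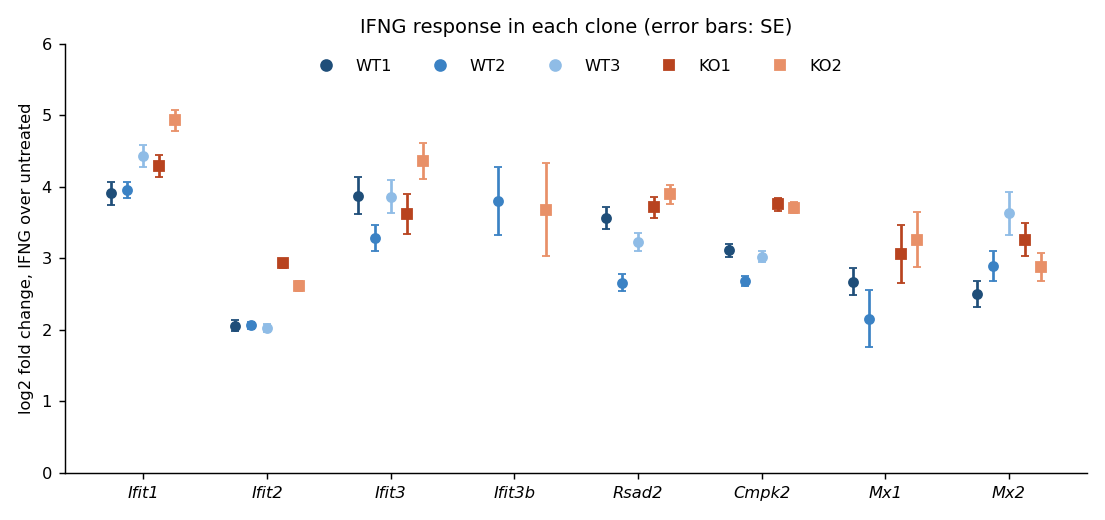
IFNG response of each gene in each clone as the log2 fold change of treated over untreated libraries, with bars of 1 standard error. Blue circles are WT clones and orange squares KO clones, and values missing for Ifit3b and Mx1 are clones in which the gene was below the count filter. The WT clones coincide at 2.03 to 2.06 for Ifit2, where KO1 is at 2.93 and KO2 at 2.61.

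The difference of responses, KO minus WT over all 30 libraries with a term for each clone, was 0.79 ± 0.090 for Cmpk2, 0.72 ± 0.063 for Ifit2, 0.64 ± 0.19 for Rsad2, 0.57 ± 0.37 for Mx1, 0.49 ± 0.18 for Ifit1, 0.33 ± 0.26 for Ifit3, 0.14 ± 0.26 for Mx2 and -0.11 ± 1.28 for Ifit3b. With any 1 clone or library left out, it ranged from 0.66 to 0.89 for Cmpk2, from 0.56 to 0.86 for Ifit2, from 0.42 to 0.86 for Rsad2, from 0.44 to 0.77 for Mx1 and from 0.20 to 0.86 for Ifit1. Its sign was not kept in the other genes, with ranges from -0.0049 to 0.75 for Ifit3, -0.19 to 0.39 for Mx2 and -0.43 to 0.49 for Ifit3b. On the log2 scale this difference is the treated difference between the genotypes minus the untreated one, and in Ifit2, Cmpk2 and Rsad2 the untreated difference was the larger in size. On the linear scale, Ifit2 gained 66.8 CPM in WT and 68.6 CPM in KO as a mean over clones, with a range of 58.5 to 78.7 CPM over the WT clones, 80.3 CPM in KO1 and 56.9 CPM in KO2. Cmpk2 gained 36.6 CPM in WT and 33.9 CPM in KO, and Rsad2 gained 14.6 CPM in WT and 13.2 CPM in KO. As a mean over clones the other 5 genes also gained less in KO than in WT, with 11.5 against 13.9 CPM for Ifit1, 3.22 against 4.50 CPM for Ifit3, 3.26 against 3.97 CPM for Mx2, 0.855 against 1.599 CPM for Mx1 and 0.453 against 0.665 CPM for Ifit3b. For Ifit1, Ifit3 and Ifit3b both KO clones lay within the range of the WT clones, and for Mx2 both lay below it. Mx1 gained 3.36 CPM in WT1, 0.777 CPM in WT2 and 0.664 CPM in WT3, against 0.791 CPM in KO1 and 0.918 CPM in KO2.

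Comparison of the 3 WT clones with one another does not use the genotype. Most of the group varied between them, as did 52.1% of all genes tested after IFNG and 59.5% untreated. After IFNG, WT2 had the highest mean of Ifit1, Ifit2, Ifit3, Ifit3b and Cmpk2, and WT1 the lowest. The ratio of these means was 2.15 for Ifit1 (21.3 against 9.89 CPM, adjusted p = 9.2e-08, edgeR test of any difference among the 3 clones), 2.46 for Ifit3 (adjusted p = 8.0e-07), 4.15 for Ifit3b, 1.34 for Ifit2 (adjusted p = 4.5e-05) and 1.24 for Cmpk2 (adjusted p = 0.00048). For Ifit3b no p-value is given, since it passed the count filter mainly through WT2. It had 16 to 26 fragments a library there, 2 to 12 in WT1 and 8 to 13 in WT3. In Mx1 the order was another, with WT1 at 3.98 CPM and WT3 at 0.761 CPM, a ratio of 5.23 (adjusted p = 4.5e-07). Treated Rsad2 and Mx2 did not pass (adjusted p = 0.070 and 0.57), although Rsad2 did so without a count filter (adjusted p = 0.038) and without 1 of the WT1 libraries (adjusted p = 0.0037). Of all 13667 genes tested, 52.1% were called, so that 6 of 8, with Ifit3b counted, is not far from what other genes showed.

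In untreated WT libraries, WT2 again had the highest mean of the Ifit genes, Rsad2 and Cmpk2. The highest and lowest clone differed 2.28 times in Ifit1 (adjusted p = 0.00062), 3.75 times in Ifit3, 1.67 times in Cmpk2 (adjusted p = 2.9e-05) and 1.34 times in Ifit2 (adjusted p = 6.5e-05). Mx1 differed 6.42 times, with WT1 highest. No p-value is given for Ifit3 and Mx1, since each passed the count filter only through its highest clone. Ifit3 had 11 to 18 fragments a library in WT2, 5 to 7 in WT1 and 6 to 9 in WT3. Mx1 had 15 to 22 in WT1, 2 to 6 in WT2 and 1 to 3 in WT3. Rsad2 (1.54 times, adjusted p = 0.033) and Mx2 (2.66 times, adjusted p = 0.028) passed by less and lost the call when single libraries were left out, with adjusted p up to 0.11 and 0.12, and Rsad2 also with DESeq2 (adjusted p = 0.095). The 7 genes tested were all called, beside 59.5% of 13971 genes, and for Ifit3 and Mx1 the filter itself favoured the call.

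The KO clones also differed from each other. After IFNG, Ifit2 was higher in KO1 than in KO2 (log2FC 0.45 ± 0.051, adjusted p = 4.1e-05), which held without any 1 library. Rsad2 (log2FC -0.30 ± 0.079, adjusted p = 0.018) and Cmpk2 (log2FC -0.26 ± 0.064, adjusted p = 0.014) were lower in KO1, in which chromosome 12 genes had a median shift of -0.36 after IFNG, against 0.015 in KO2. Their calls were lost without any of 3 single libraries for Rsad2 (adjusted p up to 0.11) and either of 2 for Cmpk2 (adjusted p up to 0.081). With library sizes taken from chromosome 12 genes, the direction turned, to 0.076 for Rsad2 (adjusted p = 0.41) and 0.12 for Cmpk2 (adjusted p = 0.11). Ifit1 was at 0.28 ± 0.090 (adjusted p = 0.054, and from 0.040 to 0.049 without either of 2 libraries), and Ifit3, Ifit3b, Mx1 and Mx2 had adjusted p from 0.40 to 0.95. Of 13860 genes, 14.9% were called. Untreated Ifit1 was higher in KO1 than in KO2 (0.934 log2, SE 0.31, adjusted p = 0.041), a call on 13 to 19 against 9 to 11 fragments a library that was lost with DESeq2 (adjusted p = 0.18), without a count filter (adjusted p = 0.071) and without 5 of the 6 libraries. Untreated Ifit2, Rsad2, Cmpk2 and Mx2 did not pass between the KO clones (log2FC 0.15, -0.11, -0.29 and -0.42, adjusted p from 0.20 to 0.82), beside 23.2% of 13826 genes called.

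Across the 15 IFNG-treated libraries, the Ifit genes varied together, least so Ifit2 and Ifit3b (r = 0.57). Pearson's r of log2(CPM + 0.5) was 0.94 between Ifit1 and Ifit3, 0.86 between Ifit3 and Ifit3b, 0.85 between Ifit1 and Ifit2 and 0.79 between Ifit2 and Ifit3. For the neighbours Rsad2 and Cmpk2 it was 0.27, and for Rsad2 and Ifit2 -0.38, while Cmpk2 had an r of 0.62 with Ifit1, 0.69 with Ifit3 and 0.27 with Ifit2. The 15 untreated libraries gave other values for these genes, with 0.86 between Rsad2 and Cmpk2, 0.87 between Rsad2 and Ifit2 and 0.94 between Cmpk2 and Ifit2. After IFNG, Mx1 and Mx2 had an r of 0.58, and Mx1 and Ifit1 -0.44. The libraries come from 5 clones and share clone, depth and normalization, so that these are descriptions. Outside the group, the 5 genes of 12371 compared whose level was most like the mean z score of the 8 genes over the same libraries were Zswim9 (r = 0.93), Usp18 (r = 0.92), Lgals9 (r = 0.90), Ccdc57 (r = 0.90) and Ank1 (r = 0.89). All 5 had their highest mean in WT2, as the Ifit genes had, but they were picked for this likeness and the shared order adds nothing to it. Usp18, for example, was at 33.6 CPM in WT2, 21.2 to 25.5 CPM in the other WT clones and 15.5 CPM in either KO clone.

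Messages of the type I interferons themselves were at or near the limit of detection at this depth. In the 18 ligand genes, among them Ifnb1 and the Ifna genes, 5 fragments were counted over all 30 libraries, in 2 genes, and no ligand fragment was seen in any IFNG-treated WT library, which allows a level of up to 0.0171 CPM for each gene over those 9 libraries. The receptor genes were measured well. Ifnar1 fell after IFNG in WT (log2FC -0.64 ± 0.076, adjusted p = 1.5e-06) and in KO (-0.50 ± 0.042, adjusted p = 2.9e-07), while Ifnar2 did not pass in WT (0.06, adjusted p = 0.73) or KO (0.11, adjusted p = 0.072). Of the 9 receptor and signalling genes reported, 5 rose and 1 fell after IFNG in each genotype, where 14.8% of all genes were called higher and 13.9% lower in WT, and 15.8% higher and 14.8% lower in KO. This list, like those below, was chosen with earlier results of these data known. Stat2 rose by 2.71 ± 0.068 in WT and 2.92 ± 0.082 in KO, Irf9 by 0.98 ± 0.086 and 1.35 ± 0.062, Irf7 by 2.81 ± 0.15 and 3.01 ± 0.13, and Irf1, a transcription factor induced by IFNG, by 5.10 ± 0.066 and 5.13 ± 0.11. Irf3, which is activated by phosphorylation, did not pass (-0.08 in WT and -0.09 in KO).

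In the untreated comparison of KO with WT, where 14.4% of all genes were called lower, 5 of these 9 genes were lower and 1 was higher. Irf7, which amplifies interferon production, was at -0.90 ± 0.16 (adjusted p = 0.00080), Irf9 at -0.50 ± 0.10 (adjusted p = 0.0019), Stat2 at -0.44 ± 0.076 (adjusted p = 0.00050), Irf3 at -0.25 ± 0.057 and Tyk2 at -0.19 ± 0.037. Ifnar1 was higher in KO (0.31 ± 0.040). After IFNG, 4 remained called lower, Irf7 (-0.69 ± 0.13), Irf3, Tyk2 and Stat2 (-0.23 ± 0.072), beside 13% of all genes, and Ifnar1 was again higher (0.45 ± 0.090). Without KO1, 3 were lower untreated and the treated counts were 0. With counts summed per clone no gene of this list was called in either state.

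A list of 28 other genes of the type I interferon signature is set beside the 8 genes. It was chosen with earlier results of these data known, so its counts beside the share of all genes are descriptions and not independent support. After IFNG 27 of the 28 rose in WT, with Isg20 (0.58, adjusted p = 0.23) as the exception, and 28 rose in KO, with median log2FC of 1.55 and 1.61. The largest rise was that of Zbp1, a sensor of nucleic acids (4.62 ± 0.89 in WT and 5.56 ± 0.83 in KO), and the smallest that of Ifi27l2a (0.38 and 0.34). In untreated cells 15 of the 28 were lower in KO and none was higher, beside 14.4% and 12.2% of all genes, with a median log2FC of -0.34 beside -0.00040 for all genes. Ifi44l was at -1.23 ± 0.15 (adjusted p = 1.7e-05), Usp18, which restrains signalling at Ifnar2, at -1.04 ± 0.19 (adjusted p = 0.00069), and the RNA sensor Ddx58 at -0.50 ± 0.081 (adjusted p = 0.00028). Without 1 clone the count of lower genes was between 9 (without KO1) and 18 (without WT1), 3 genes were higher without WT1 and 1 without WT2 or without KO2, and with counts summed per clone it was 0. After IFNG 11 of the 28 were lower in KO, beside 13% of all genes, with a median of -0.24. The count was 7 without KO2, 17 without WT1 and 0 with counts summed per clone. The response was larger in KO than in WT by the test of that difference in 3 of the 28 (Ifi44l, Rtp4 and Ddx58), beside 0.82% of 14386 genes, and in none without KO1 or without WT2. That test takes libraries and not clones as replicates.

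Genes usually driven by IFNG had a higher median response than the 8 genes. Their list has the same limit of choice, so its counts are descriptions too. Of 16 listed genes, 15 passed the filter and all 15 rose in both genotypes, with median log2FC of 6.06 in WT and 6.39 in KO, and the highest was that of the chemokine Cxcl9 (12.7 in WT and 13.5 in KO). Cxcl9 had no fragment in any untreated library, so the size of its log2FC and the gap between genotypes rest on no measured untreated level. Untreated, 5 of 12 genes tested were lower in KO and 1, Icam1, was higher, beside 14.4% and 12.2% of all genes. These counts were 0 without KO1 and with counts summed per clone, 2 were lower without WT2 and 3 without a count filter. After IFNG, 8 of 15 were higher in KO and none was lower (median log2FC 0.21), beside 10.9% of all genes called higher. That count was 0 without KO1 and with counts summed per clone, 3 without WT2 or without KO2 and 5 without WT3, and 2 were lower without WT1. By the test of the difference of responses, 7 of the 15 responded more in KO than in WT and none less, beside 0.82% of 14386 genes called more. Here too libraries and not clones were the replicates. The median difference was 0.49. Without 1 clone the count was between 1 (without KO1) and 7 (without WT1), and 1 gene responded less without WT1, with DESeq2 and without a count filter. The 6 feedback inhibitors, which include Usp18, Isg15 and Socs1 of the other lists, rose in both genotypes, with median log2FC of 2.90 in WT and 3.17 in KO. The Ifit-like gene Ifit1bl2, which lies in the Ifit cluster, rose by 3.57 ± 0.27 in WT and 3.71 ± 0.47 in KO, and Ifit1bl1 was below the filter.

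**Figure D4:**
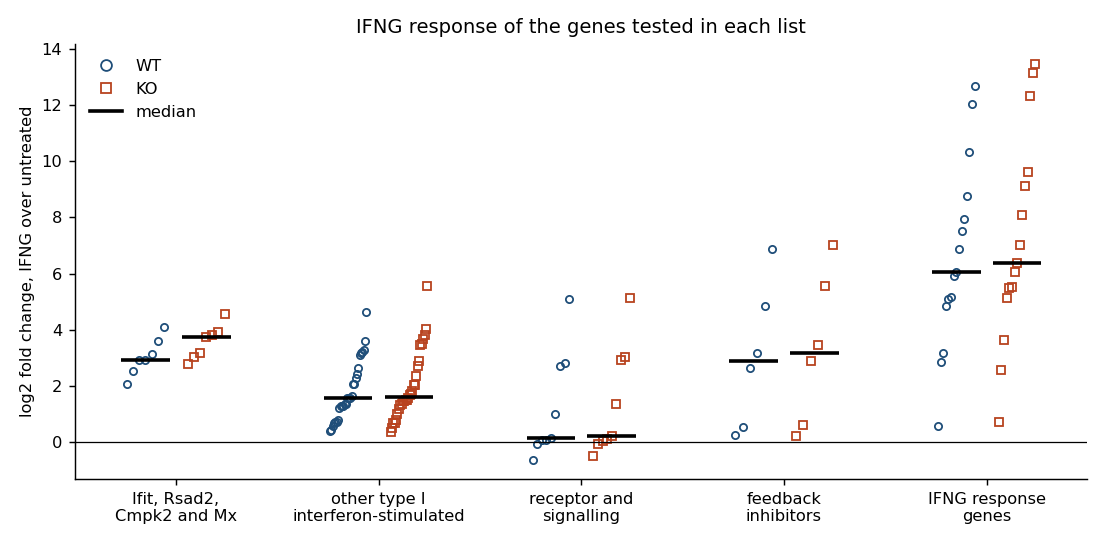
IFNG response as log2 fold change of treated over untreated libraries for the genes that passed the count filter in each list, in pooled WT (blue circles) and pooled KO (orange squares), with the median of each list as a black line. The first group is the 7 fitted genes of the Ifit, Rsad2, Cmpk2 and Mx set, whose medians are 2.92 and 3.72, and the last is the IFNG response genes, whose medians are 6.06 and 6.39.

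The genes beside the 3 loci are given for their position. Of the 4 neighbours of the Ifit cluster, Lipa and Pank1 passed the filter. Lipa did not pass the test after IFNG (0.0022 in WT, adjusted p = 0.99, and -0.11 in KO, adjusted p = 0.073), while Pank1 fell (-0.39 in WT and -0.28 in KO). The listed neighbours of Rsad2 and Cmpk2 (Rnf144a and Sox11) had no fragment in any library, which allows up to 0.00424 CPM for each over all 30 libraries, and those of Mx1 and Mx2 summed to at most 0.103 CPM in a library.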

How the data were processed

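Polyadenylated RNA of J774A.1 clones was sequenced, with 3 libraries for each of 5 clones and 2 treatments. Per the labels and the study's methods, the authors removed adapters with BBDuk, used HISAT2 2.1.0 to place the reads on mm10 and SAMtools 1.10 to retain fragments with a unique position, joined technical replicates and counted fragments on exons with featureCounts 1.6.2, with the strand reversed. The deposited values are raw counts per gene, with no normalization. The methods name a RefSeq annotation and the file headers a Gencode one. Columns named wtc1 and wtc3 were taken as WT2 and WT3 because the authors' tables for those clones hold only these columns. The labels number the libraries of a group, but the columns of the count table carry no such number, and nothing says that the libraries are separate cultures, so p-values measure the spread between libraries, which may be technical. Labels name more than 1 RNA input amount and adapter kind without assigning them, so no batch could be checked. Upper limits for genes with no fragment are 3 counts over the libraries named and cover counting error only. In all 30 pairs of libraries of a clone and treatment the counts differed by more than sampling noise (chi-square per degree of freedom from 1.95 to 19.5).

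Counts were analysed with edgeR 4.0.16 in R 4.3.3 (filterByExpr, TMM, quasi-likelihood test, Benjamini-Hochberg adjustment over all genes tested, threshold 0.05). The standard error (SE) of a log2FC, the log2 fold change, was its size over the root of the F statistic. CPM used TMM factors over 14386 genes. The steps were run on simulated counts, where 175 to 200 of 200 changed genes were recovered with 5 to 12 false calls. The simulated libraries were independent, with no clone effect and no genes of few fragments. They therefore do not show how the fits handle the clones or the low counts of these data. DESeq2 1.42.0, RLE factors, other count filters, counts summed per clone, clone as a block, a single fit over all libraries, chromosome 12 library sizes, and leaving out each library or clone were the alternatives. Figures were drawn with matplotlib 3.10.9.

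The 8 genes and the lists were chosen with earlier results of these data known. Named genes were the 8 genes, Dicer1, listed ligands, receptors and transcription factors, list genes with the largest and smallest log2FC, and the 5 genes most like the group. Other list genes given as examples (Usp18, Ddx58, Isg20, Icam1 and the neighbours) were chosen after their values were seen. The promoter windows of Mx1 and Mx2 were not analysed here. An item of the signalling list is not reported here, and the counts leave it out. Columns of the authors' own comparisons were not used.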

Additional observations from a re-analysis of the deposited data

Results flagged for a closer look

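None of the 32 groups of libraries (8 genes, 2 genotypes and 2 treatments) held a library that stood apart from the others of its group by Dixon's test, which by chance marks about 1 group in 20. Besides the 8 genes, for which the difference of responses was not tested, 4 genes of the type I interferon lists responded more to IFNG in KO than in WT by the test of the difference itself. These were Irf9 (0.35, adjusted p = 0.0049), Ifi44l (0.74, adjusted p = 0.016), Ddx58 (0.32, adjusted p = 0.016) and Rtp4 (0.55, adjusted p = 0.045), in log2 units of KO minus WT from edgeR. Of all 14386 genes, 0.82% were called in this direction. So were 7 of the 15 IFNG response genes tested, and none of those was called in the other direction. The lists were chosen with earlier results of these data known, so these counts are not independent support. The test has a term for the level of each clone and none for the response of each clone. It thus takes libraries as the replicates of 3 WT and 2 KO clones, and it was not run per clone. All 4 differences stayed positive when any 1 clone was left out. The calls did not all stay, and the highest adjusted p was 0.23 for Irf9, 0.40 for Ifi44l and 0.66 for Ddx58, each without KO1, and 0.61 for Rtp4 without WT2. DESeq2 called the 4 genes with adjusted p from 0.00020 to 0.011.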

How the results depend on the processing

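No paired analysis was possible because the columns of the count table carry no replicate number, so the planned fits with the replicate number as a block were not run. With counts summed per clone, 1 gene was called between KO and WT untreated and 1 after IFNG, against 3689 and 3258 over libraries. With clone as a block the IFNG response of WT gave 6190 calls against 3840, and without a count filter the difference of responses gave 384 against 166. With at least 10 counts in every library, 23 gene and clone pairs of the 8 genes could be fitted against 36, all positive. The genes were selected on this response, so the shared sign is no check of it. When 1 library or clone was left out, calls ranged from 1674 (without KO1) to 6472 (without WT1) for untreated KO against WT, from 1411 (without KO1) to 5992 (without WT1) after IFNG, from 1328 to 2294 for KO1 against KO2 after IFNG (main 2064) and from 21 (without KO1) to 568 (without WT1) for the difference of responses. The treated difference of Rsad2 and of Cmpk2 between KO1 and KO2 turned to 0.076 and 0.12 with chromosome 12 library sizes, and that of Mx1 between KO and WT to 0.18 without WT1, in a range that began at -1.39 without WT3. Values with no call that changed sign included the treated differences of Ifit1 and Ifit3b (0.053 and 0.19 without WT2) and of Ifit2 (0.077 without KO2). The cause was not tested. Over the 8 genes, 1479 of 1620 alternative values kept direction and call or moved by less than the spread of replicates. Depth limits Ifit1, Ifit3, Ifit3b, Mx1 and Mx2, which had 32 or fewer fragments in each untreated library.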
